A study of Homo sapiens with 6 samples.

Results

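The TGF-beta, activin and follistatin genes studied here were a list of 10 symbols, TGFBI, FST, INHBA, TGFB1, TGFB2, TGFBR1, TGFBR2, SMAD3, SMAD7 and SKIL. Of these 10 genes, 8 had a row among the 10487 genes of the deposited table. TGFB1 and SMAD7 had none and were not analysed here. The list was chosen by a reading of this same comparison, in which the fold changes of TGFBI and FST were already known. The values of the 8 genes are therefore given as a description, with no p-value, and where the text says which of them passed the threshold of the fit over all genes, this restates the choice and is no evidence.

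The measurements came from MDA-MB-468, a human cell line derived from a triple negative breast cancer with a basal-like phenotype. The 3 control libraries were wild type and untreated according to the sample labels. The 3 IGFBP2 overexpression libraries were also untreated and came from cells named MDAMB468-VHP-IGFBP2, which stably express a nuclease-dead Cas9 fused to transcriptional activators together with a guide RNA against IGFBP2, introduced by lentivirus, selected with antibiotic and sorted for a fluorescent marker. The sources used here do not state whether the control cells carried the activator, so an effect of the activator or of the selection cannot be told apart from one of IGFBP2. IGFBP2 itself was at 93.5, 87.3 and 136 CPM, a share of the reads on listed genes, in the control libraries and at 566, 1176 and 498 CPM in the overexpression libraries.

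Ligands of the TGF-beta superfamily are secreted dimers that bring together type II and type I serine/threonine kinase receptors at the cell surface. The type I receptor then phosphorylates receptor SMADs, SMAD2 and SMAD3 for TGF-beta and activin, which enter the nucleus with SMAD4. Follistatin, the product of FST, binds activin outside the cell and blocks its access to the receptors. MDA-MB-468 cells are known from earlier work to carry a homozygous deletion of SMAD4. The table used here held no row for SMAD4.

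The listed genes held 2497353 to 4579587 reads per library. On the scaled CPM of the table, 1 read was worth 0.222 to 0.404 CPM. Mitochondrial transcripts took 7.20% to 8.55% of these reads. All 14 of 14 markers listed for basal-like breast epithelium, among them EPCAM, KRT5 and EGFR, had a row. The list also holds KRT8, KRT18 and KRT19, so it marks epithelium and not basal cells alone. Its summed level was 8275 to 9072 CPM in control and 7747 to 8316 CPM in overexpression libraries. Of 11 stromal markers only COL1A1 had a row, at 12.2 to 27.5 CPM in control and 9.36 to 15.8 CPM in overexpression libraries, and PDGFRB, LUM and FAP had none. None of 6 leukocyte markers had a row. In bulk RNA, fewer cells expressing a gene and less RNA per cell cannot be told apart.

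The 250 bases before the start of TGFBI, FST and INHBA are shown because these genes differed most between the groups. They are a target gene, a secreted inhibitor and a ligand subunit. The sequences are from RefSeq on GRCh38.p14 and read 5′ to 3′ in the direction of transcription, from the start that RefSeq gives, which for INHBA and FST is not the GENCODE one. TGFBI is at chr5:136028738-136028987 on the plus strand, FST at chr5:53480379-53480628 on the plus strand and INHBA at chr7:41703091-41703340 on the minus strand. Capitals mark CAGAC on either strand, a core to which SMADs bind, and TGANTCA, the site of AP-1.
TGFBI: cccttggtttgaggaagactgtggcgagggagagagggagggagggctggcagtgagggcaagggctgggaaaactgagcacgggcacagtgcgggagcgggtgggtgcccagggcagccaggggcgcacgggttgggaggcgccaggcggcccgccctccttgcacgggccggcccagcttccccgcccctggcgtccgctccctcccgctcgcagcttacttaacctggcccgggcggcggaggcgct
FST: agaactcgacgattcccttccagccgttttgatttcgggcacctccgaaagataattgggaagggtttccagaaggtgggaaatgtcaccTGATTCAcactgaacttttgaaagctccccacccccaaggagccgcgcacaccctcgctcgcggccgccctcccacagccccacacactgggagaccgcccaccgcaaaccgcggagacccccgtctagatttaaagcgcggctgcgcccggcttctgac
INHBA: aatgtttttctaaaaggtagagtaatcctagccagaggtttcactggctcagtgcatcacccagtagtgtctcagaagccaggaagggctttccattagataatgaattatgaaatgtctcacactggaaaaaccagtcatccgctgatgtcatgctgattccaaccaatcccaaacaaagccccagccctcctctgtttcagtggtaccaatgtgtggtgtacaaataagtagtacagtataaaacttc
CAGAC was present in none of these windows, and TGANTCA was present once, in FST, starting 160 bases before the start. This match has T in the middle and so is not the AP-1 consensus. Among 35116 promoter windows of the same length, 38.0% held CAGAC and 6.57% held TGANTCA, and the motifs do not overlap. All 8 genes matched an entry. Over the other 5, CAGAC occurred at 2 positions in TGFB2, 1 in TGFBR1 and 1 in SKIL, and TGANTCA in none. The windows of TGFBI, FST and INHBA had GC contents of 72.8%, 60.0% and 42.8%, around a median of 58.0% over all windows.

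In these libraries, the mean CPM of the activin ligand subunit INHBA, of both TGF-beta receptors and of SMAD3 was higher with IGFBP2 overexpression than in control, and that of SKIL was lower, but none of these 5 genes passed the threshold. FST had a lower mean CPM, and the target gene TGFBI a 17.2-fold higher one. TGFB2 overlapped between the groups. The libraries of the 2 groups did not overlap for 7 of the 8 genes, 5 higher and 2 lower in the overexpression cells. Such separation was seen for 18.0% of all 10487 genes. TGFBR2 and FST have a row only through their higher group, as the authors kept genes averaging over 5 CPM in either condition. With limma on the deposited log2 values, 2 of the 8 genes, TGFBI and FST, had an adjusted p under 0.05, against 0.629% of all genes. Nothing is read from these counts, since the genes were chosen with this contrast in view.

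**Figure D1:**
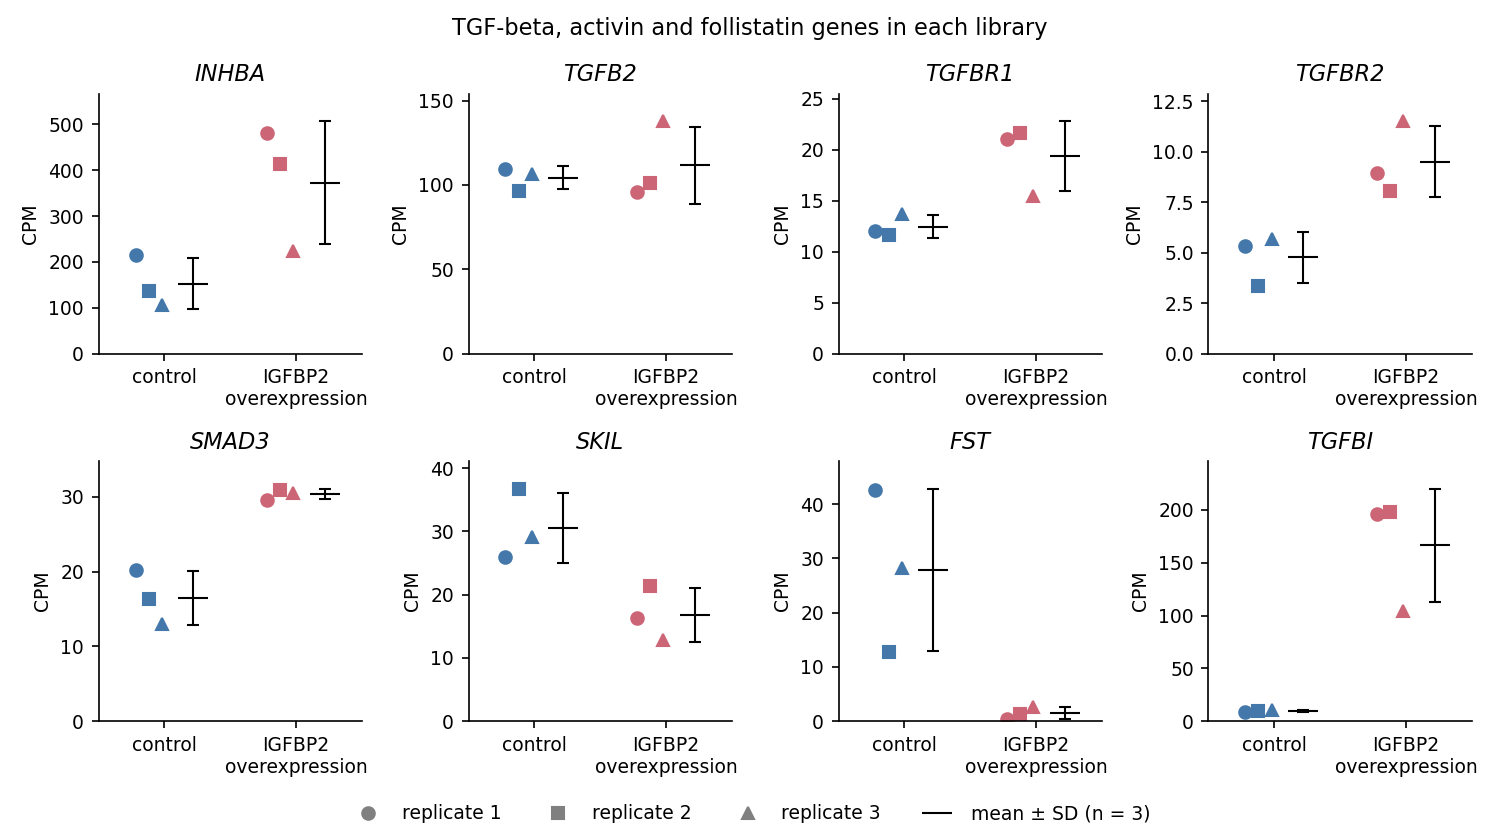
Expression of the 8 genes in each library in CPM, on linear axes that start at 0, with 3 control libraries (blue) and 3 IGFBP2 overexpression libraries (red); marker shape gives the replicate number and black bars the mean ± SD (n = 3). The groups are apart in every panel but TGFB2, and overexpression replicate 3 (red triangle) is the overexpression library nearest the controls for INHBA, TGFBR1, FST and TGFBI.

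INHBA (ENSG00000122641) encodes the beta A subunit, whose homodimer is activin A. It lies on chromosome 7 of GRCh38 from 41667168 to 41705834 on the minus strand in GENCODE 44. Its level was 215, 137 and 106 CPM in the control libraries (replicates 1, 2 and 3 in that order here and later), and 482, 413 and 224 CPM in the overexpression libraries. Replicate 3 of the overexpression cells was only just above replicate 1 of the controls, while the other overexpression libraries were well above all controls. Control cells averaged 153 ± 56.4 CPM (SD, n = 3) and overexpression cells 373 ± 134 CPM (SD, n = 3), a ratio of 2.44. As a difference of mean log2(CPM + 1), the scale of every log2 fold change given here, this was 1.27 (standard error 0.34). It was 1.60 without overexpression replicate 3 and 1.04 without control replicate 3. The control libraries spread with a coefficient of variation of 36.9%, against 4.79% from counting alone and a median of 19.5% over all genes. INHBA-AS1, an antisense gene that overlaps INHBA, had no row in the table.

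TGFB2 (ENSG00000092969), which encodes the ligand TGF-beta 2, lies on chromosome 1 from 218345336 to 218444619 on the plus strand. It was at 109, 96.5 and 107 CPM in the control libraries and at 95.9, 101 and 138 CPM in the overexpression libraries. The groups overlapped, and overexpression replicate 3 alone was above the control range. The log2 fold change was 0.08 (standard error 0.20), and it was -0.078 without overexpression replicate 3.

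TGFBR1 (ENSG00000106799), the type I receptor of TGF-beta, lies on chromosome 9 from 99104038 to 99154192 on the plus strand. It was at 12.0, 11.7 and 13.7 CPM in the control libraries and at 21.1, 21.6 and 15.4 CPM in the overexpression libraries. All 3 overexpression libraries were above the controls, replicate 3 by the least. TGFBR1 had a log2 fold change of 0.59 (standard error 0.20).

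TGFBR2 (ENSG00000163513), the type II receptor that binds TGF-beta first, lies on chromosome 3 from 30606601 to 30694142 on the plus strand. It was at 5.33, 3.34 and 5.66 CPM in the control libraries and at 8.97, 8.07 and 11.5 CPM in the overexpression libraries. Here replicate 3 was the overexpression library farthest from the controls. TGFBR2 had a log2 fold change of 0.88 (standard error 0.23). Its control mean of 4.78 CPM was under the authors' filter of 5 CPM, which it passed only through its overexpression mean of 9.51 CPM. Its level rests on 12 to 35 reads per library, and the control coefficient of variation of 26.3% was close to the 25.6% that counting alone gives.

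SMAD3 (ENSG00000166949), a receptor SMAD of the TGF-beta and activin branch, lies on chromosome 15 from 67063763 to 67195173 on the plus strand. It was at 20.2, 16.4 and 12.9 CPM in the control libraries and at 29.6, 31.0 and 30.5 CPM in the overexpression libraries. The overexpression libraries lay close together, within a range narrower than counting alone would give (coefficient of variation 2.28% against 10.7%). SMAD3 had a log2 fold change of 0.86 (standard error 0.20).

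SKIL (ENSG00000136603) encodes SnoN, a nuclear corepressor that binds SMADs. It lies on chromosome 3 from 170357342 to 170396835 on the plus strand. It was at 26.0, 36.7 and 29.1 CPM in the control libraries and at 16.4, 21.3 and 12.8 CPM in the overexpression libraries. All overexpression libraries were below all controls. SKIL had a log2 fold change of -0.84 (standard error 0.23).

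FST (ENSG00000134363), the secreted inhibitor of activin, lies on chromosome 5 from 53480626 to 53487134 on the plus strand. It was at 42.6, 12.8 and 28.3 CPM in the control libraries and at 0.39, 1.29 and 2.63 CPM in the overexpression libraries. These low values stand for 1, 4 and 8 reads, against 192, 46 and 70 reads in the controls. FST passed the authors' filter only through the control group, as its overexpression mean was 1.44 CPM. The groups did not overlap, and the lowest control, replicate 2, was still above the highest overexpression library, replicate 3. Over the summed reads of each group FST was 19.5-fold lower in overexpression cells, with a 95% interval from 11.2 to 37.1 (exact Clopper-Pearson, which covers counting error only). The log2 fold change was -3.53 (standard error 0.45), and on this scale it depends on the pseudocount, from -4.35 at 0.1 to -2.26 at 5. FST also varied among the control libraries, with a coefficient of variation of 53.5% against 11.7% from counting. Of 3812 genes with a control mean between 15 and 50 CPM, the median coefficient was 19.2% and the 95th percentile 45.9%. FST was not past the threshold without overexpression replicate 1, overexpression replicate 2 or control replicate 3, where its log2 fold change was -3.17, -3.54 and -3.44.

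TGFBI (ENSG00000120708) encodes a secreted extracellular matrix protein that binds integrins and is named for its induction by TGF-beta. It lies on chromosome 5 from 136028988 to 136063818 on the plus strand. It was at 8.44, 10.01 and 10.5 CPM in the control libraries and at 196, 198 and 104 CPM in the overexpression libraries. The controls lay within the spread of counting (coefficient of variation 11.2% against 17.6%), and overexpression replicate 3 was lower than the other overexpression libraries. Over the summed reads, 1436 against 100, the ratio was 17.4 with a 95% interval from 14.2 to 21.6 (exact Clopper-Pearson, counting error only). The log2 fold change was 3.92 (standard error 0.27), which ranked 2 from the highest of all 10487 genes. No other gene of GENCODE 44 overlaps TGFBI or FST.

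INHBA was higher and FST lower in the overexpression cells. In each library the reads of INHBA were divided by those of FST, and a change in this ratio between libraries does not depend on transcript length. There were 5.05, 10.7 and 3.74 INHBA reads per FST read in control replicates 1, 2 and 3. There were 1236, 320 and 85.1 in overexpression replicates 1, 2 and 3. With few FST reads these ratios are imprecise, and the exact 95% intervals ran from 221 to 48858, from 125 to 1175 and from 43.0 to 198. The intervals cover counting error only, and the control libraries differed from each other by more than that, with 4.32 to 5.93, 7.91 to 14.8 and 2.87 to 4.94. The level of INHBA and that of FST were ordered in reverse among the overexpression libraries and not among the controls, where replicate 1 was highest for both.

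**Figure D2:**
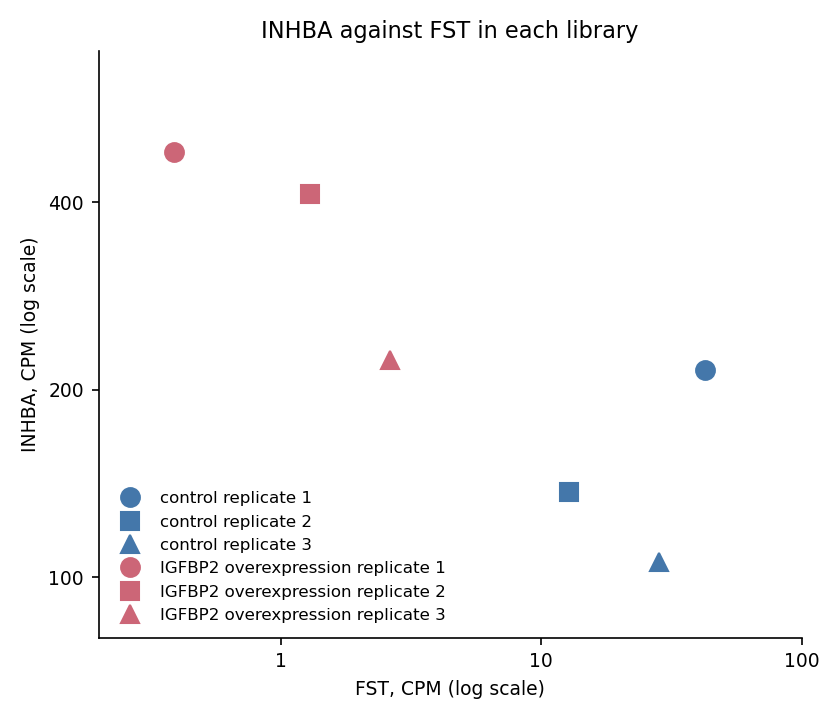
INHBA against FST in CPM, both on log axes, with 1 point per library in control (blue) and IGFBP2 overexpression cells (red); marker shape gives the replicate. The control libraries lie at the right with 12.8 to 42.6 CPM of FST, and the overexpression libraries at the left with 0.39 to 2.63 CPM.

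Overexpression replicate 3 was nearest to the control mean for INHBA, TGFBR1, FST and TGFBI. For SMAD3 it was replicate 1, and for SKIL, TGFBR2 and TGFB2 replicate 2. Over the 66 genes with an adjusted p under 0.05 (limma), replicate 3 was the nearest in 39, or 59.1%, against 36.0% of all genes. Replicate 3 also had the lowest IGFBP2 of the overexpression libraries, 498 CPM, though replicate 1 was close at 566 CPM and replicate 2 was at 1176 CPM. The library farthest from the controls was replicate 1 for INHBA and FST, and replicate 2 for TGFBI and TGFBR1. Whether these are related was not tested.

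The genes whose log2 values over the 6 libraries were most like TGFBI were PFKP, RGS20 and PEDS1, with Pearson correlations of 0.994, 0.993 and 0.993. For FST they were NPR3, ENC1 and ARMC6, with 0.988, 0.980 and 0.979. These are descriptions over 6 points that share a contrast, and 83 genes exceeded 0.95 with TGFBI and 29 with FST. RGS20, at 1.55, 1.95 and 2.02 CPM in the control libraries, passed the authors' filter only through the overexpression group. PFKP, a phosphofructokinase isoform of glycolysis, was at 138, 153 and 143 CPM in the control and 301, 337 and 267 CPM in the overexpression libraries. NPR3, a natriuretic peptide receptor, was at 84.8, 50.3 and 88.6 CPM in the control and 8.97, 9.36 and 17.7 CPM in the overexpression libraries. Both had overexpression replicate 3 nearest to the controls, which follows in large part from their choice by likeness to TGFBI and FST.

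To describe the rest of the pathway, 193 other genes of TGF-beta superfamily signalling and its targets were listed by role, and 116 of them had a row. The lists were written with earlier results of these data known. The shares below are therefore a description and no independent test. With limma in the main setting, 1 of the 116, or 0.862%, had an adjusted p under 0.05, against 0.629% of all genes. With limma voom 4 of the 116 passed, against 141 of all 10487 genes. With a mean-variance trend 4 of the 116 passed, against 160 of all genes. At an unadjusted p under 0.05 there were 23, or 19.8%, of which 15 were higher and 8 lower, against 13.0% of all genes. The same counts given below by role list stand against this 13.0%. Their shares ran from 0% to 42.9% on 3 to 21 genes each. The SMADs and anchors (0%), the ubiquitin and phosphatase regulators (9.52%) and the non-SMAD branch (11.8%) lay under 13.0% and the other lists above it. The libraries of the groups did not overlap for 25 genes, or 21.6%, against 18.0%. The median log2 fold change was 0.020, and that of all genes was 9.82e-05. In 9 of the 10 role lists no gene passed the threshold.

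The gene that passed was SPHK1 (ENSG00000176170), sphingosine kinase 1, a target gene of TGF-beta that makes sphingosine-1-phosphate. It was at 6.44, 5.28 and 3.64 CPM in the control libraries and at 25.7, 28.7 and 32.5 CPM in the overexpression libraries. All overexpression libraries were far above the controls, and replicate 3 was here the highest. SPHK1 rose from a mean of 5.12 ± 1.41 CPM (SD, n = 3) to 29.0 ± 3.40 CPM (SD, n = 3). Its log2 fold change was 2.31 (standard error 0.22), with an adjusted p of 0.00907 (limma). It passed under all 15 alternative settings, with adjusted p from 0.000345 to 0.0394 (limma). Of these settings 1, TMM scaling, only repeats the main fit. SPHK1 lies on chromosome 17 from 76376584 to 76387860 on the plus strand and overlaps PRPSAP1 on the minus strand. The sources used here do not state whether strand was used in counting, so reads of this pair may not be told apart. PRPSAP1 had a log2 fold change of 0.24 (standard error 0.18).

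Among the other 18 measured target genes of TGF-beta and activin, TIMP3 and HMOX1 had the smallest p-values. TIMP3, an inhibitor of metalloproteases, was at 206, 355 and 120 CPM in the control and 21.1, 21.6 and 70.3 CPM in the overexpression libraries, with a log2 fold change of -2.66 (adjusted p = 0.0673, limma). HMOX1, the haem-degrading enzyme, was at 31.7, 42.8 and 21.0 CPM in the control and 62.8, 110 and 164 CPM in the overexpression libraries, with a log2 fold change of 1.74 (adjusted p = 0.0946, limma). Neither gene had overlapping groups, and both passed with limma voom. CCN2, the connective tissue growth factor, had a log2 fold change of -0.64 (standard error 0.42), CCN1 of -0.77 (standard error 0.38) and JUNB of -0.57 (standard error 0.20). Other target genes were higher, with 0.61 for FN1 (standard error 0.57), 0.53 for KLF10 (standard error 0.30), 0.45 for CDKN1A (standard error 0.23) and 0.26 for BHLHE40 (standard error 0.36). PMEPA1 had -0.097 (standard error 0.21). In this list 8 genes had a positive and 11 a negative fold change, with a median of -0.11.

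Of the 8 further genes measured in the ligand list, 7 had a positive fold change and 0 passed the threshold. At an unadjusted p under 0.05 there were 2, BMP7 and BMP1, and 0 passed with limma voom. BMP1 is a protease and not a ligand. BMP7 was at 41.1, 17.2 and 12.1 CPM in the control and 50.3, 56.8 and 49.3 CPM in the overexpression libraries (log2 fold change 1.30, standard error 0.38). The adjusted p of BMP7 was 0.204 (limma). It passed in 1 of the 15 alternatives, without control replicate 1 (log2 fold change 1.78, adjusted p = 0.0208, limma), and was up to 0.454 in the others. BMP1, a protease that processes collagens and frees ligands from their inhibitors, was at 13.3, 13.4 and 16.6 CPM in the control and 26.1, 22.6 and 23.3 CPM in the overexpression libraries (log2 fold change 0.70, standard error 0.18). INHBB, which encodes the other common activin subunit, had a log2 fold change of 0.14 (standard error 0.33), and AMH of 0.54 (standard error 0.31).

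Among 7 genes of ligand latency and activation, 0 passed (3 at an unadjusted p under 0.05, 0 with limma voom). FURIN, the protease that cleaves TGF-beta precursors, was at 32.6, 34.8 and 29.1 CPM in the control and 48.3, 57.8 and 48.3 CPM in the overexpression libraries (log2 fold change 0.66, standard error 0.18). ITGAV, the integrin subunit alpha V that takes part in freeing latent TGF-beta, was at 24.6, 22.3 and 23.5 CPM in the control and 37.0, 34.2 and 32.8 CPM in the overexpression libraries (log2 fold change 0.55, standard error 0.17). For both genes the groups did not overlap. LTBP1, a latent TGF-beta binding protein, had a log2 fold change of -0.78 (standard error 0.31).

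Of the secreted inhibitors other than FST, 3 were measured and 0 passed (1 at an unadjusted p under 0.05, 0 with limma voom). NBL1, a BMP antagonist of the DAN family, had a log2 fold change of 0.82 (standard error 0.24), TWSG1, a BMP binding protein, of 0.61 (standard error 0.28) and FSTL1 of 0.096 (standard error 0.23). FSTL3, the closest relative of FST, had no row.

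The other receptors and co-receptors numbered 11, of which 0 passed (3 at an unadjusted p under 0.05, 0 with limma voom). NEO1, the neogenin receptor that binds RGM co-receptors of BMPs, was at 6.88, 10.8 and 6.47 CPM in the control and 1.56, 2.58 and 3.94 CPM in the overexpression libraries (log2 fold change -1.31, adjusted p = 0.1, limma). NEO1 passed the authors' filter only through the control group, as its overexpression mean was 2.69 CPM. CD109, a co-receptor that dampens TGF-beta signalling, had a log2 fold change of 0.76 (standard error 0.23) and RGMA of -0.90 (standard error 0.31). The activin type I receptor ACVR1B had a log2 fold change of 0.17 (standard error 0.21). ACVR2A had no row.

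For the receptor SMADs beside SMAD3, the log2 fold change was -0.078 for SMAD2 (standard error 0.20), 0.15 for SMAD1 (standard error 0.23) and -0.012 for SMAD5 (standard error 0.19). SMAD6, an inhibitory SMAD, had 0.23 (standard error 0.22). Among the 9 SMADs and anchor proteins 0 passed, and 0 had an unadjusted p under 0.05 or passed with limma voom. The smallest p-values in this list were those of ZFYVE16 (log2 fold change -0.49, standard error 0.24), TGFBRAP1 (-0.28, standard error 0.21) and STRAP (0.22, standard error 0.19).

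Of 15 nuclear partners and corepressors, 0 passed (4 at an unadjusted p under 0.05), and EP300 passed with limma voom. EP300, an acetyltransferase coactivator of SMADs, was at 165, 176 and 173 CPM in the control and 93.2, 81.7 and 125 CPM in the overexpression libraries (log2 fold change -0.79, adjusted p = 0.162, limma). SKI, the closest relative of SKIL, had a log2 fold change of 0.14 (standard error 0.19). RUNX1 had 0.93 (standard error 0.33) and RUNX3 0.96 (standard error 0.36), and the groups overlapped for both of these transcription factors.

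Among 21 ubiquitin and phosphatase regulators, 0 passed (2 at an unadjusted p under 0.05, 0 with limma voom). FKBP1A, which binds and restrains type I receptors, had a log2 fold change of 0.59 (standard error 0.18), SMURF1, a ubiquitin ligase for SMADs and receptors, of 0.52 (standard error 0.19) and PPM1A of 0.42 (standard error 0.21). Of 17 genes of the non-SMAD branch 0 passed (2 at an unadjusted p under 0.05, 0 with limma voom). The adaptors TAB2 and TAB3 had log2 fold changes of 0.60 (standard error 0.20) and 0.54 (standard error 0.18), and the kinase MAPK8 of 0.37 (standard error 0.18).

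Of 8 measured BMP target genes, 0 passed (2 at an unadjusted p under 0.05, 0 with limma voom). ID4, an inhibitor of helix-loop-helix transcription factors, was at 89.7, 114 and 61.5 CPM in the control and 25.3, 26.5 and 66.7 CPM in the overexpression libraries. Replicate 3 lay within the control range and the other overexpression libraries below it (log2 fold change -1.24, standard error 0.38). ID2 had a log2 fold change of -0.95 (standard error 0.39) and ID3 of 0.29 (standard error 0.26). The adjusted p of ID2 was 0.348 (limma). It passed in 1 of the 15 alternatives, without control replicate 1 (log2 fold change -1.45, adjusted p = 0.0463, limma), and was up to 0.635 in the others.

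**Figure D3:**
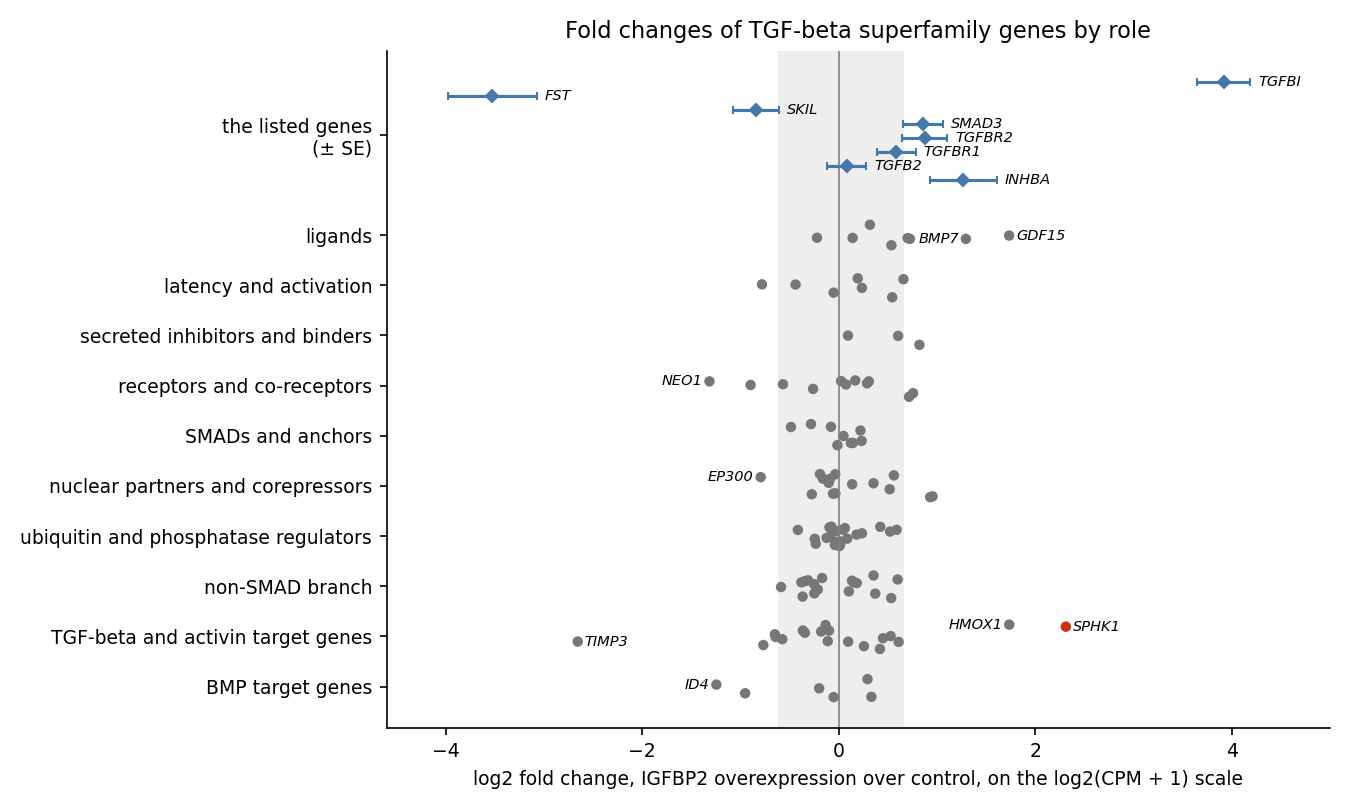
Log2 fold change of IGFBP2 overexpression over control on the log2(CPM + 1) scale, for the 8 listed genes (blue diamonds with standard error) and the 116 other pathway genes by role (grey points, red where the adjusted p from limma is under 0.05); vertical position within a role is arbitrary, BAMBI and SMAD6 belong to 2 roles and are drawn once, and the grey band holds the middle 90% of all genes. SPHK1 is the only red point, and TGFBI and FST lie farther from 0 than any other gene drawn.

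**Figure D4:**
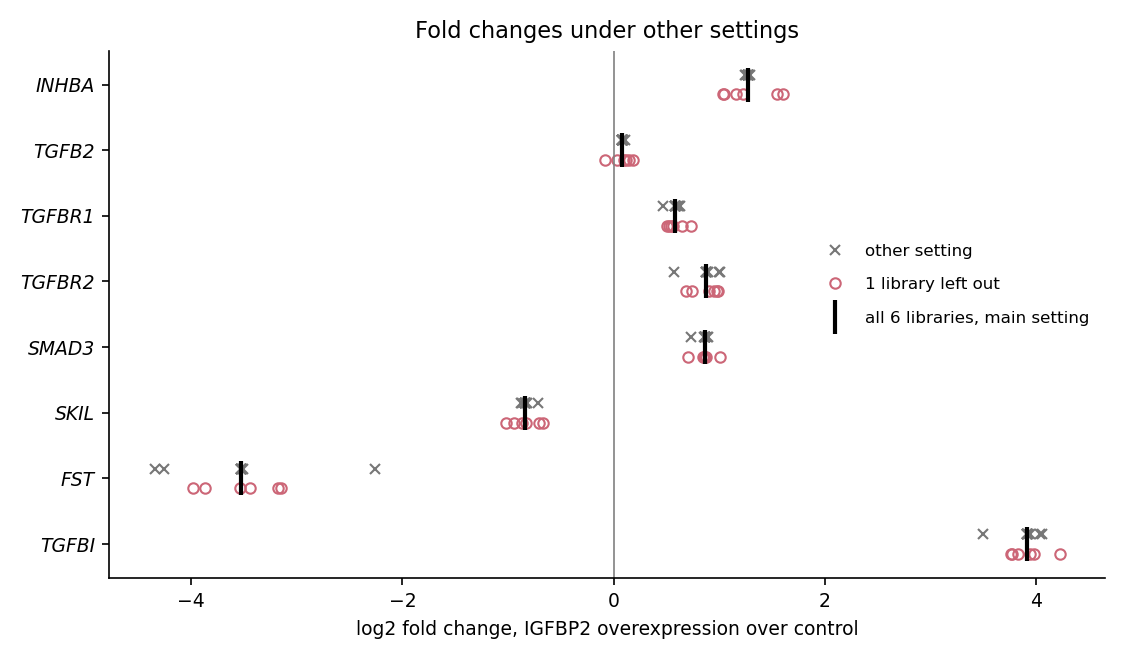
Log2 fold change of the 8 genes with all 6 libraries (black bar), with 1 library left out (red circles) and under other settings (grey crosses). TGFB2 is the only gene with values on both sides of 0, and FST has the widest range, from -4.35 to -2.26.

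Over all 15 alternative settings, TGFBI ranged from 3.49 to 4.22 in log2 fold change, INHBA from 1.04 to 1.60, SMAD3 from 0.71 to 1.01, TGFBR1 from 0.47 to 0.73 and SKIL from -1.01 to -0.67. TGFBR2, which had too low a level for the stricter filter, ranged from 0.57 to 1.01 over 14 settings. These ranges are shown in the plot of fold changes by setting.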

How the data were processed

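Total RNA from 3 biological replicates each of control and IGFBP2 overexpression MDA-MB-468 cells was sequenced from the 3′ end of transcripts, so that reads do not scale with transcript length. Per the paper's methods, the authors used bbduk for trimming, STAR for alignment to hg38, HTSeq for counting (version 0.9.1 in the submitters' processing notes) and edgeR for normalization, and dropped genes whose average CPM did not exceed 5 in either condition. The deposited values are log2(CPM + 1) for 10487 genes. Each value gave a whole number of reads within 0.01 (100% of values), and TMM scaling of these reads gave the same 66 calls as the deposited scale.

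limma (version 3.58.1, R 4.3.3) was fitted to all genes on the log2 scale, modelling condition alone, without a mean-variance trend, with Benjamini-Hochberg adjustment over all genes at 0.05. Each p-value sets the difference between the group means against the spread of libraries within the groups. That spread was estimated for each gene and drawn towards a value shared by all genes. Symbols came from GENCODE 44 (10462 identifiers matched) and promoters from RefSeq. Intervals of read ratios were exact (scipy 1.17.1, Python 3.11.15). The fits were tested on simulated reads. Replicate numbers were checked for pairing, and the correlations of their deviations from the group means were 0.17, -0.064 and 0.084. The numbers were therefore not taken as pairs.

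The genes, the role lists and the tests were chosen with earlier results of these data known. Named were the listed genes, IGFBP2, pathway genes past the threshold, the 3 smallest p-values per role list and the 3 genes most like TGFBI and FST. CCN1, CCN2, JUNB, FN1, KLF10, CDKN1A, BHLHE40, PMEPA1, INHBB, GDF15, ACVR1B, SMAD1, SMAD2, SMAD5, SMAD6, SKI and PRPSAP1 were named after their values were seen. Alternatives covered scaling, variance model, pseudocount, leaving out each library, the replicate block and a stricter filter on low CPM.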

Additional observations from a re-analysis of the deposited data

How the results depend on the processing

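Every direction of the 8 listed genes except TGFB2 was kept under the alternatives run. The count of genes differing, 66 (45 higher, 21 lower), was 141 (90, 51) with limma voom, 160 (94, 66) with a mean-variance trend, 37 (28, 9) at a pseudocount of 0.1 and 129 (84, 45) at a pseudocount of 5. With 1 library left out it ranged from 12 to 79, and the libraries whose removal gave the lowest counts were overexpression replicate 1 (12), overexpression replicate 2 (13) and control replicate 3 (17). Blocking on the replicate number gave 55 genes, 42 of them shared with the 66, and the block changed no call of a listed or pathway gene. The authors' own edgeR test of this contrast called more genes at an FDR under 0.05 than any setting tried here. Among their calls lower genes outnumbered higher ones, while higher genes outnumbered lower ones in every setting here. That a listed gene did not pass therefore holds for these limma settings only, as edgeR testing was not repeated.

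Listed genes past the threshold, 2 in number, were 1 to 2 with 1 library left out, and 3 with limma voom or the trend, where INHBA was added. The 1 pathway gene past the threshold became 4 under limma voom and 4 under the trend, where 141 and 160 of all genes passed. Under a pseudocount of 5 there were 3, against 129 of all genes. When genes had to average over 10 CPM there were 2, against 78 of 8970 genes. When a library was left out there were 1 to 3. FSTL1 ranged from -0.064 (overexpression replicate 3 left out) to 0.23 (overexpression replicate 2 left out), and was -0.048 when control replicate 3 was left out. IGFBP2 ranged from 2.35 to 2.97 and passed under all 15 alternatives. The cause of these differences was not tested. Tests that model counts were not run, and no filter at all could not be tried because the deposited genes were already filtered. Depth limits FST most, with 1 to 8 reads in the overexpression libraries, and TGFBR2, with 12 to 35 reads in all libraries.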

Other observations

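GDF15, a distant ligand of the superfamily that is induced by cell stress, was singled out after its values were seen. It was at 5.77, 117 and 1.21 CPM in the control libraries and at 38.2, 46.8 and 33.8 CPM in the overexpression libraries (replicates 1, 2 and 3). Control replicate 2 stood far above the other control libraries, and the overexpression libraries lay between. The log2 fold change was 1.74 (standard error 1.16, adjusted p = 0.577 from limma), and without control replicate 2 it was 3.38 (adjusted p = 0.0237 from limma). Over the 15 alternatives the adjusted p ranged from 0.0237 to 0.871.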
